A study of Solanum lycopersicum with 12 samples.

Results

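The leaf transcriptome of tomato after 24 h of feeding by *T. absoluta*, the South American tomato leafminer, was described gene by gene by comparing 3 infested with 3 control libraries of that time point. A gene was tested when it had more than 1 CPM in at least 3 of these 6 libraries, which left 17511 of the 34075 genes counted. CPM (the usual unit of depth-scaled counts) is a share of the library total, unscaled for this filter. The CPM values printed are shares of the TMM-scaled library total. Of the genes left out, 9052 were without any count in these 6 libraries. Plants were of cv. Better Bush, a dwarf hybrid. The infested plants received larvae on the terminal leaflets of 1 leaf (the 3rd true leaf by the labels, while the paper names another), and control plants went through a mock deposition, and after 24 h the same leaflets, cleared of larvae, were frozen for RNA. The labels count as many plants as libraries but do not state that each library is 1 plant, so p-values measure the spread between these samples, which may be technical. The series also holds 3 infested and 3 control libraries of 5 h, used here to choose gene sets without the 24 h data and to compare responses.

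Chewing and mining of a leaf triggers the synthesis of jasmonate, a hormone made from membrane lipids, which switches on genes for proteins that impair digestion in the insect gut. In tomato these include proteinase inhibitors, leucine aminopeptidase, threonine dehydratase, arginase and polyphenol oxidase. The leaf also joins polyamines or tyramine to phenolic acids, giving phenolamides, and genes for photosynthesis commonly fall while defence genes rise.

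Library totals ran from 22754433 to 27824673 counts, so that 3 counts corresponded to 0.106 to 0.144 CPM. The light harvesting genes used as leaf markers took 0.769 to 1.16% of all counts in infested and 1.84 to 2.52% in control libraries, and were thus abundant in all 6. Replicates differed by more than sampling noise, the chi-square divided by its degrees of freedom being 17.7 to 164 within groups, hence no library was a copy of another. The 3 infested libraries were not equally far from the controls. Pearson's r of log2 CPM was taken across all genes tested. For infested replicates 1, 2 and 3 it was 0.874, 0.936 and 0.919 with control replicate 1. With control replicate 2 it was 0.889, 0.948 and 0.932. With control replicate 3 it was 0.822, 0.880 and 0.882, so infested replicates 2 and 3 were level there. Infested replicate 1 was the farthest from each control. The controls were uneven too, with 0.940 between control replicates 2 and 3 and 0.977 between 1 and 2.

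At an adjusted p below 0.05 in edgeR's quasi-likelihood test, 825 genes rose and 1127 fell after 24 h. These DEGs (differentially expressed genes) made up 4.71% and 6.44% of the genes tested, or 11.1% together, and these shares are the background for each count of list members. The median log2FC (infested minus control) was 1.35 among up-regulated DEGs and -0.91 among down-regulated DEGs, beside 0.03 over all genes. Of the genes tested, 170 had at most 1 CPM in every control and passed the filter only through the infested libraries. An absolute log2FC above 1.5 was reached by 367 of the DEGs that rose and 96 of those that fell. All 3 infested libraries lay above all 3 controls for 19.3% of genes tested and below them for 18.1%. The calls rested strongly on 2 of the control libraries. Without control replicate 1 the same test called 30 genes up and 1 down, and without control replicate 3 it called 82 up and 20 down. Without control replicate 2 it called 350 up and 570 down, without infested replicate 1 it called 377 and 604, and without infested replicate 3 it called 319 and 808. Leaving out infested replicate 2 gave 1030 and 957. Of the 51 DEGs named below, 43, 49 and 42 were still called without infested replicates 1, 2 and 3, but 5, 38 and 12 without control replicates 1, 2 and 3.

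Genes for digestive defence proteins rose from low control levels. Of the 12 proteinase and chymotrypsin inhibitor genes that the study grouped under response to wounding, all 12 were tested and 11 rose. Their log2FC ran from 3.00 to 10.18 around a median of 8.63. The study chose this list among the 24 h DEGs of these same libraries, so its direction is not independent evidence. The 12 genes together had 30524, 9360 and 31142 CPM in infested replicates 1, 2 and 3 and 33.6, 106 and 35.4 CPM in the controls. Summed levels of the inhibitors in replicate 2 were thus far above the controls, and below the other infested libraries. The inhibitor *Solyc09g089520* had 1726, 277 and 1668 CPM against 0.227, 2.4 and 0.528 CPM (log2FC 10.18, SE 1.15, edgeR adjusted p = 0.00870). *Solyc09g089500* showed the same order, with 3063, 262 and 2677 CPM against 1.36, 7.20 and 0.625 CPM. *Solyc09g084440* was the most even of those named, with 1218, 541 and 1541 CPM against 2.27, 5.01 and 1.68 CPM (log2FC 8.52, SE 0.64, edgeR adjusted p = 0.00234), and it kept its call whichever library was left out. The exception was *Solyc08g080630*, where infested replicate 2 had the highest level. It had 0.531, 17.7 and 2.74 CPM against 0.682, 1.90 and 0 CPM, the groups overlapped, and it did not pass the test (log2FC 3.00, SE 1.37, edgeR adjusted p = 0.182). Without control replicate 1 the list had 6 calls, *Solyc09g089520* and *Solyc09g089500* not among them, and without control replicate 3 it had 10, without *Solyc09g089500*. Many of these inhibitors are neighbours on chromosome 9, and how reads that fit several genes were treated is not given, so neighbours may share reads.

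Enzymes that degrade or withhold amino acids from the insect rose as well. Threonine dehydratase (*Solyc09g008670*), which breaks down threonine, had 6058, 6155 and 7983 CPM in the infested and 15.1, 37.6 and 10.5 CPM in the control libraries (log2FC 8.32, SE 0.60, edgeR adjusted p = 0.00234). Here replicate 2 was as high as replicate 1, and the call held with each library left out. Arginase 2 (*Solyc01g091170*), which splits arginine into ornithine and urea, had 2285, 749 and 2349 CPM against 4.28, 9.27 and 2.69 CPM (log2FC 8.37, SE 0.72, edgeR adjusted p = 0.00288), and was also called with every library left out. Arginase 1 (*Solyc01g091160*) reached lower levels, 68.2, 26.7 and 73.7 CPM against 1.74, 3.19 and 4.37 CPM (log2FC 4.19, SE 0.49), and lost its call only without control replicate 1. The leucine aminopeptidase *Solyc12g010020*, which trims amino acids from the ends of proteins, had the highest levels of those described, 11756, 4200 and 12261 CPM against 7.35, 31.6 and 3.80 CPM (log2FC 9.36, SE 1.06, edgeR adjusted p = 0.00870). Its neighbour *Solyc12g010030* had 8147, 3048 and 8364 CPM against 3.22, 23.6 and 1.97 CPM (log2FC 9.41, SE 1.21). Both lost the call without control replicate 1, where *Solyc12g010020* had an edgeR adjusted p of 0.0823.

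**Figure D1:**
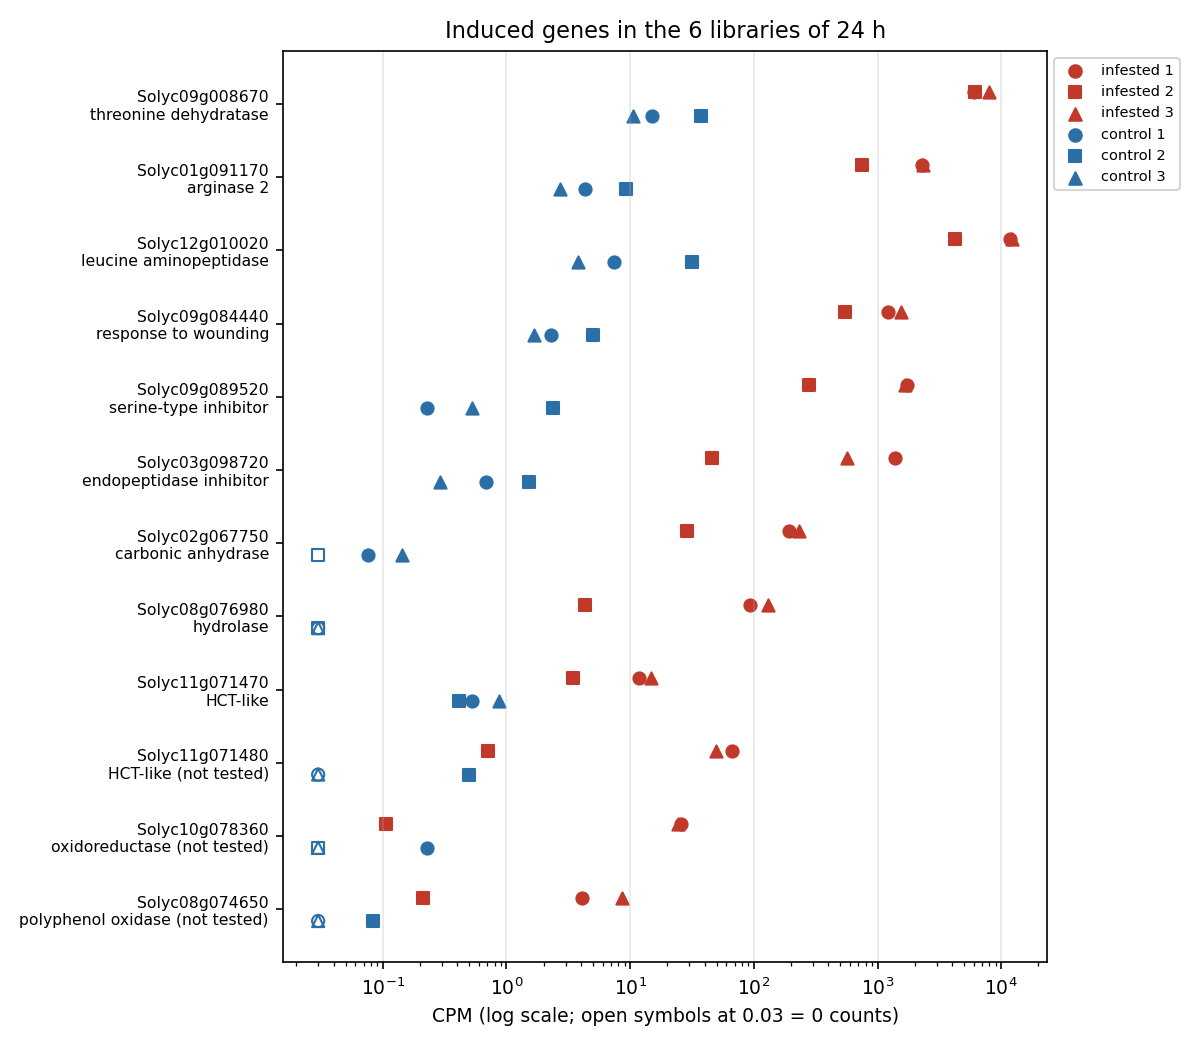
CPM on a log scale (horizontal axis) of 9 genes that rose after 24 h and 3 that were not tested, 1 row per gene, with 3 infested (red) and 3 control (blue) points and a marker shape for each replicate number, open markers standing for 0 counts. In the 9 genes that rose, all infested points lie to the right of the controls. In the 3 not tested, infested replicate 2 lies close to or within the range of the controls. Infested replicate 2 is in most rows the infested point nearest to the controls (277 CPM against 1726 and 1668 CPM for *Solyc09g089520*), and threonine dehydratase (*Solyc09g008670*) is an exception, with 6155 CPM in replicate 2.

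Other strongly induced genes were near silent in the control leaves. The carbonic anhydrase *Solyc02g067750*, of an enzyme family that interconverts carbon dioxide and bicarbonate, had 191, 28.9 and 233 CPM against 0.0757, 0 and 0.144 CPM (log2FC 10.97, SE 1.14, edgeR adjusted p = 0.00735). The endopeptidase inhibitor *Solyc03g098720* had 1388, 45.8 and 565 CPM against 0.682, 1.53 and 0.288 CPM (log2FC 9.61, SE 1.41). Its neighbour *Solyc03g098760* had 252, 12.9 and 216 CPM against 0, 0.745 and 0 CPM (log2FC 9.29, SE 1.51). In these 3 genes infested replicate 2 lay above the controls but well below the other infested libraries. The hydrolase *Solyc08g076980* had 93.9, 4.30 and 129 CPM with no count in any control, which is at least 1806-fold higher when 3 counts over the control group are taken as the floor (edgeR adjusted p = 0.0267), and like *Solyc02g067750* and *Solyc03g098760* it passed the filter only through the infested libraries. The ribonuclease T2 gene *Solyc07g006560*, of a family of RNA-degrading enzymes, ran the other way within the infested group, with 9.47, 25.1 and 19.8 CPM against 0, 0.414 and 0.144 CPM (log2FC 6.59, SE 0.77, edgeR adjusted p = 0.00921), so that replicate 2 was the highest. This gene too passed the filter only through the infested libraries. It was called with each library left out, whereas *Solyc02g067750*, *Solyc03g098720*, *Solyc03g098760* and *Solyc08g076980* all lost their calls without control replicate 1. The last 3 also lost it without control replicate 3, and *Solyc08g076980* kept it only without infested replicate 2. The most abundant genes with no annotation in the sources used here were *Solyc06g150133*, with 11660, 1130 and 11233 CPM against 1.40, 15.2 and 0.961 CPM, and *Solyc06g073587*, with 11115, 1120 and 10793 CPM against 0.795, 16.1 and 0.817 CPM. Their near equal values in every library may come from shared reads, which was not tested. Their log2FC were 10.41 and 10.34, and both calls were lost without control replicate 1 or 3.

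The unequal response of the infested libraries was measured on genes chosen without them. In the 5 h libraries alone, 17044 genes passed the same filter, of which 1827 were called up and 1475 down. Over the 1827 genes up at 5 h, the median difference of log2 CPM from the mean of the 24 h controls was 0.94, 0.50 and 0.75 in infested replicates 1, 2 and 3, and between -0.12 and 0.10 in the controls. Over the 1475 genes down at 5 h it was -0.60, -0.35 and -0.44, with the controls between -0.15 and 0.13. Replicate 2 was thus the weakest and replicate 1 the strongest in both sets. With library totals in place of TMM factors the order stayed and the gaps changed, the medians being 1.13, 0.76 and 0.79 over the genes up at 5 h and -0.41, -0.09 and -0.40 over the genes down at 5 h.

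The level in replicate 2 relative to the other infested libraries differed between genes. Such a ratio includes the control level, so an evenly weaker response would also give unequal ratios. Whether the response was reduced evenly was not tested. Of the 1601 genes up at 5 h that averaged at least 5 CPM in infested replicates 1 and 3, replicate 2 had a median of 0.756 times that average, and 77.8% lay between 0.5 and 2 times it. A group of 28 genes (1.75%) lay under 0.1 times it. The same ratio fell under 0.1 for none of 1534 genes in replicate 1 and none of 1561 genes in replicate 3. Genes with at most 1 CPM in all 3 controls showed a further contrast between libraries. Among these, 132 exceeded 1 CPM in infested replicates 1 and 3 but not in 2, and 12 of them had no count at all in replicate 2. A similar number, 130, exceeded 1 CPM in replicates 1 and 2 but not in 3, while 33 did so in replicates 2 and 3 but not in 1, and 170 in all 3. Many of these genes were not tested at 5 h. Of those that were, 38 of 52 missing in replicate 2 were up at 5 h, 2 of 30 missing in replicate 3, 4 of 12 missing in replicate 1 and 58 of 86 present in all 3, beside 10.7% of all genes tested at 5 h. Of these, 32, 1, 2 and 46 had passed the 5 h filter only through its infested libraries, so the counts describe the genes and support nothing.

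**Figure D2:**
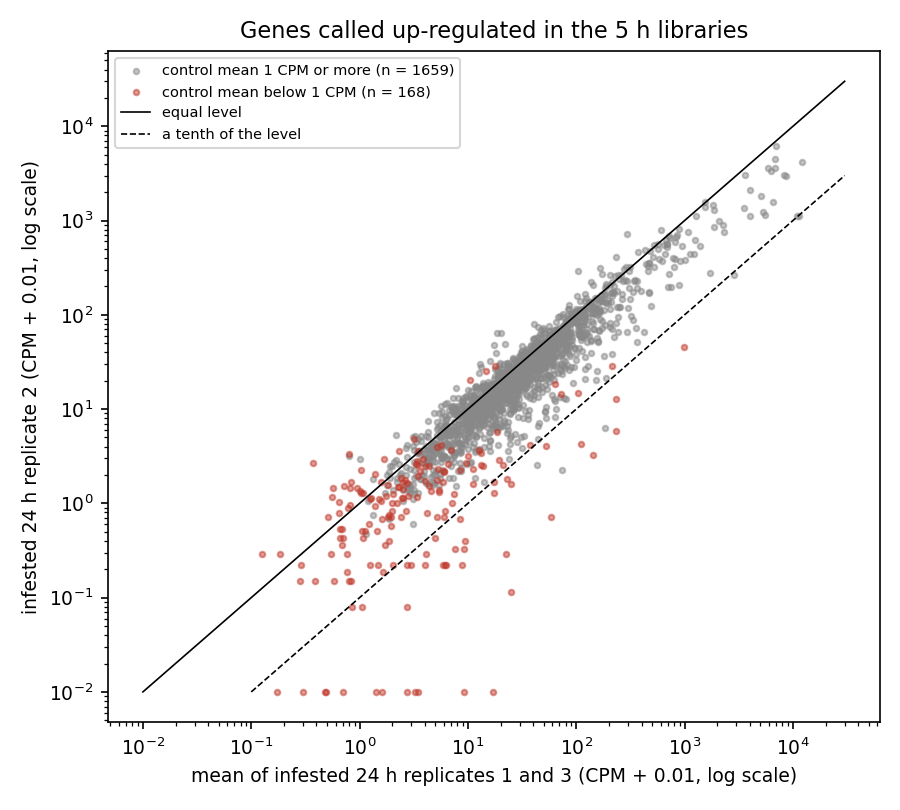
CPM + 0.01 of infested replicate 2 (vertical axis) against the mean of infested replicates 1 and 3 (horizontal axis), both on log scales, for genes called up in the 5 h libraries, with lines for ratios of 1 and 0.1. Most points follow the line of equal values, the median ratio being 0.756 where that mean was at least 5 CPM, and 28 of those 1601 genes fall below the line at 0.1.

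Genes of this kind escaped the test through the filter on low values. Of the 50 genes that the study lists as most induced at 5 h, 21 were tested at 24 h, and 8 of these passed only because all 3 infested libraries exceeded 1 CPM, so no count of calls is drawn from them. The other 29 had at most 1 CPM in all 3 controls, and for 24 of them infested replicate 2 was at or below 1 CPM while replicates 1 and 3 were above. Over all 50, the ratio of replicate 2 to the mean of replicates 1 and 3 was under 0.1 for 24 genes and over 0.5 for 10. The untested genes named here are given by their values alone. A putrescine hydroxycinnamoyl transferase of the study (*Solyc11g071480*), which joins a phenolic acid to a polyamine, had 1643, 20 and 1279 counts (67.1, 0.705 and 49.3 CPM) in infested replicates 1, 2 and 3 and 0, 12 and 0 counts in the controls. The polyphenol oxidase *Solyc08g074650*, which turns phenolics into reactive quinones, had 4.08, 0.211 and 8.56 CPM against 0, 0.0827 and 0 CPM. In both genes infested replicate 2 was close to the level of the controls. The oxidoreductase *Solyc10g078360* had 25.8, 0.106 and 24.1 CPM against 0.227, 0 and 0 CPM. Another oxidoreductase, *Solyc11g010980*, had 40.1, 0.705 and 29.1 CPM against 0.189, 0 and 0 CPM. The tryptophan synthase beta chain gene *Solyc10g005320*, of an enzyme that makes tryptophan, had 27.4, 0 and 6.79 CPM against 0, 0.0827 and 0.0961 CPM. In the first of these 3 and in *Solyc10g005320* replicate 2 lay within the range of the controls. The diacylglycerol acyltransferase *Solyc01g095960*, of a family that completes the synthesis of storage fats, had 27.7, 0.282 and 17.4 CPM and no control count, or at least 360-fold more.

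Jasmonate synthesis and lipid breakdown, which supplies its precursors, were represented by few annotated genes. Allene oxide cyclase (*Solyc02g085730*), a step of jasmonate synthesis, had 538, 174 and 407 CPM against 78.7, 70.5 and 51.4 CPM (log2FC 2.48, SE 0.40, edgeR adjusted p = 0.0179). SlMYC1 (*Solyc08g076930*), a transcription factor of trichome and terpene genes in tomato, had 50.9, 35.1 and 63.2 CPM against 13.2, 17.1 and 14.1 CPM (log2FC 1.75, SE 0.23, edgeR adjusted p = 0.0144). All infested libraries exceeded all controls for both genes, as for 19.3% of all genes. Of 4 lipases named by the study, all tested, 3 rose and the median log2FC was 3.01. The lipase *Solyc08g006850* had 35.1, 3.66 and 23.7 CPM with no count in the controls, at least 495-fold more (edgeR adjusted p = 0.0186), and it too passed the filter only through the infested libraries. *Solyc02g077420* had 40.9, 8.07 and 23.4 CPM against 2.39, 0.414 and 0.625 CPM (log2FC 4.37, SE 0.80). *Solyc01g079600* was lower in fold, with 31.4, 11.2 and 17.9 CPM against 5.87, 6.74 and 6.63 CPM (log2FC 1.65, SE 0.35). Infested replicate 2 was nearest to the controls in all 4. The phosphatidylcholine-sterol acyltransferase *Solyc09g072710*, 1 of 3 lipid modification genes of which 2 were tested, rose from 11.5, 9.27 and 7.45 CPM to 55.1, 27.2 and 47.2 CPM (log2FC 2.20, SE 0.29). None of the 6 DEGs of this paragraph was called without control replicate 1 or 3, and *Solyc02g077420* and *Solyc01g079600* were also lost without control replicate 2 and *Solyc01g079600* without infested replicate 3.

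Polyamine synthesis runs from arginine through ornithine or agmatine to putrescine, spermidine and spermine. Of 17 genes followed by the study, all in the files, 12 were tested and 5 rose with none falling, beside 4.71% of all genes (median log2FC 2.03). Arginine decarboxylase (*Solyc01g110440*), which opens the route through agmatine, had 31.0, 14.3 and 36.9 CPM against 8.94, 9.14 and 10.1 CPM (log2FC 1.54, SE 0.33, edgeR adjusted p = 0.0284). All infested libraries exceeded the controls, with replicate 2 the nearest, and the call was kept only without infested replicate 2 among the libraries left out. Besides both arginases, the others that rose were spermine synthase (*Solyc03g007240*), with 680, 198 and 817 CPM against 63.9, 78.1 and 74.4 CPM (log2FC 2.97, SE 0.48, edgeR adjusted p = 0.0179), and aromatic amino acid decarboxylase 2 (*Solyc08g006740*), with 26.9, 5.74 and 10.1 CPM against 1.02, 1.28 and 0.384 CPM (log2FC 3.96, SE 0.68). Ornithine decarboxylase (*Solyc04g082030*), which makes putrescine, had 150, 20.6 and 156 CPM against 12, 11.1 and 27.6 CPM. Replicate 2 lay within the range of the controls and the gene did not pass (log2FC 2.69, SE 0.73, edgeR adjusted p = 0.0545), but passed without infested replicate 2 (adjusted p = 0.00744). The list held 1 call without control replicate 1, 2 without control replicate 3 and 7 without infested replicate 2.

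The phenylpropanoid pathway, which makes the phenolic acids of phenolamides from phenylalanine, moved less uniformly. Of 58 genes of the study's pathway list, 54 were in the files and 38 tested. Of these 10 rose and 2 fell, beside 4.71% and 6.44% of all genes, and the median log2FC was 0.60. Caffeoyl-CoA O-methyltransferase (*Solyc04g063210*), which methylates a pathway intermediate, rose evenly, with 54.6, 42.2 and 64.5 CPM against 9.24, 9.10 and 11.1 CPM (log2FC 2.45, SE 0.20, edgeR adjusted p = 0.00246), and held its call with each library left out. The putrescine hydroxycinnamoyl transferase *Solyc11g071470* had 11.8, 3.42 and 14.7 CPM against 0.530, 0.414 and 0.865 CPM (log2FC 4.05, SE 0.61, edgeR adjusted p = 0.0170). This gene passed the filter only through the infested libraries. The hydroxycinnamoyl transferase *Solyc03g117600* had 145, 53.3 and 169 CPM against 30.4, 22.8 and 29.4 CPM (log2FC 2.15, SE 0.40). In these transferases replicate 2 was again the lowest infested library, yet above all controls. The 4-coumarate CoA ligase *Solyc06g068650*, which activates phenolic acids, had 171, 68.1 and 154 CPM against 52.4, 42.2 and 59.4 CPM (log2FC 1.35, SE 0.33, edgeR adjusted p = 0.0407). Of 5 genes for phenylalanine ammonia lyase, the entry step, 3 rose with a median log2FC of 0.94, among them *Solyc09g007900* with 662, 408 and 358 CPM against 244, 249 and 232 CPM (log2FC 0.98, SE 0.23, edgeR adjusted p = 0.0389). *Solyc10g086180*, of the same enzyme, had 808, 368 and 1010 CPM against 310, 284 and 425 CPM, overlapped between groups and did not pass (log2FC 1.10, SE 0.35, edgeR adjusted p = 0.0837), and without infested replicate 2 its adjusted p was 0.0186. The same holds of *p*-coumarate 3-hydroxylase (C3'H, *Solyc01g096670*), with 84.6, 28.5 and 71.0 CPM against 22.6, 15.3 and 33.2 CPM (edgeR adjusted p = 0.0753), which passed without infested replicate 2. The 2 genes that fell belong to the flavonoid branch, which makes coloured and UV-absorbing phenolics. SlMYB12 (*Solyc01g079620*), a regulator of flavonol synthesis, had 2.82, 3.66 and 4.71 CPM against 8.10, 6.41 and 10.5 CPM (log2FC -1.16, SE 0.29, edgeR adjusted p = 0.0440), and lost its call with any 1 library left out. Chalcone isomerase (*Solyc05g052240*) had 33.5, 39.0 and 43.5 CPM against 64.7, 68.7 and 99.9 CPM (log2FC -1.01, SE 0.20, edgeR adjusted p = 0.0243). No phenylalanine ammonia lyase gene was called without any 1 control library. The pathway list held 1 call in all without control replicate 1, 1 without control replicate 3, 5 without control replicate 2, and 6, 12 and 8 without infested replicates 1, 2 and 3.

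A cluster of neighbouring genes on chromosome 8 followed another order. N-hydroxycinnamoyl-CoA:tyramine N-hydroxycinnamoyl transferases join phenolic acids to tyramine, and aromatic amino acid decarboxylases make tyramine and related amines. The transferase *Solyc08g068730* rose, with 34.6, 17.3 and 13.6 CPM against 2.05, 4.05 and 0.961 CPM (log2FC 3.20, SE 0.56, edgeR adjusted p = 0.0184), and lost the call without control replicate 1 or 3. Another transferase, *Solyc08g068710*, had 69.0, 9.48 and 11.2 CPM against 3.29, 5.05 and 5.00 CPM (log2FC 2.75, SE 0.77, edgeR adjusted p = 0.0596). Decarboxylase 1A (*Solyc08g068680*) had 57.9, 8.70 and 13.6 CPM against 7.20, 4.59 and 2.11 CPM (log2FC 2.52, SE 0.76, edgeR adjusted p = 0.0709). In these genes infested replicate 1 stood above replicates 2 and 3, and the last 2 passed only without infested replicate 2 among the libraries left out. *Solyc08g068700*, also a transferase, had the smallest difference, with 92.1, 39.7 and 35.6 CPM against 38.5, 27.1 and 25 CPM, overlapping groups and an edgeR adjusted p of 0.155. Near-identical neighbours may share reads here too.

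Aromatic amino acid metabolism, which supplies phenylalanine and tyrosine, had 16 of 17 listed genes tested, of which 8 rose and none fell (median log2FC 0.97). This list was also chosen among the 24 h DEGs of these libraries. All 16 had a positive log2FC. The count was 0 without control replicate 1 or 3, 4 without control replicate 2, and 5 to 8 without an infested library. *Solyc09g011870*, an amino acid biosynthesis gene of this list, had 26.3, 2.4 and 4.55 CPM against 0.757, 0.786 and 0 CPM, and was called without infested replicate 2 but not with it (log2FC 4.37, SE 1.16, edgeR adjusted p = 0.0520). This gene passed the filter only through the infested libraries.

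Few signalling genes passed the test. Of 4 MAP kinases, enzymes that relay wound and pathogen signals, all were tested and 1 rose. SlMPK1 (*Solyc12g019460*) had 28.4, 27.6 and 29.5 CPM against 16.5, 18.3 and 12.1 CPM (log2FC 0.87, SE 0.18, edgeR adjusted p = 0.0272), even within the infested group, and lost the call without infested replicate 1 or 3 or control replicate 1 or 3. SlMPK3 (*Solyc06g005170*) had 136, 43.7 and 40.4 CPM against 26.7, 37.3 and 17 CPM, with replicate 1 far above the rest (log2FC 1.44, SE 0.51, edgeR adjusted p = 0.103). Of 5 ethylene response genes, whose products sense or transmit the gas hormone ethylene, all were tested and none was called, while all 5 had infested libraries above controls, as had 19.3% of all genes (median log2FC 0.75). *Solyc06g053710* had the largest log2FC, with 22.9, 8.91 and 8.91 CPM against 5.83, 5.46 and 5.33 CPM (log2FC 1.29, SE 0.39, edgeR adjusted p = 0.0695). *Solyc09g007870* had the smallest, with 53.2, 60.9 and 55.3 CPM against 43.7, 40.5 and 37.8 CPM (log2FC 0.47, SE 0.13, edgeR adjusted p = 0.0512). The study chose both lists among the 24 h DEGs of these libraries. With all 12 libraries in the fit, where the spread is shared with the 5 h groups, 4 of the 5 ethylene genes and 3 of the 4 MAP kinases rose, beside 11.9% of all genes tested. Without infested replicate 2, 2 ethylene genes were called.

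Terpenoid genes, which lead to sterols and to the glycoalkaloids of tomato, had 2 of 8 members that rose and none that fell (median log2FC 0.58). Isopentenyl diphosphate isomerase (*Solyc05g055760*), an early step, had 32.9, 32.9 and 26.7 CPM against 13.4, 16.7 and 14.4 CPM (log2FC 1.06, SE 0.16, edgeR adjusted p = 0.0174). The sterol reductase *Solyc09g009040* had 11.1, 13.9 and 16.9 CPM against 4.89, 7.07 and 7.21 CPM (log2FC 1.13, SE 0.24, edgeR adjusted p = 0.0286). Here infested replicate 2 did not lie nearest to the controls. Hydroxymethylglutaryl-CoA synthase (*Solyc08g080170*), at the head of the mevalonate pathway, had 26.5, 41.1 and 36.9 CPM against 25.5, 20.5 and 23.5 CPM and was not called (edgeR adjusted p = 0.0867), but was without infested replicate 1. No member was called without control replicate 1 or 3. The wider isoprenoid list of 11 and the steroid list of 9 were both chosen by the study at 5 h. They had 1 and 3 genes that rose, beside 4.71% of all genes, with medians of 0.53 and 0.58. With library totals 6 of the isoprenoid list and 4 of the terpenoid list were called. Under that scaling 1339 of all 17511 genes tested rose and the median log2FC of all genes was 0.21.

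On the repressed side, genes of photosynthesis fell together. Of the 26 light harvesting genes shown in a shortened list of the study, whose products bind chlorophyll in the antennae of the photosystems, 25 fell, beside 6.44% of all genes, and all 26 had infested libraries below controls, as had 18.1% of all genes. The median log2FC was -1.61 and the range -4.02 to -0.53. The list was chosen among the 24 h DEGs of these libraries. Together the 26 genes had 7140, 8474 and 12016 CPM against 22849, 18898 and 27726 CPM. In whole leaflets, fewer green cells and less of this RNA per cell cannot be told apart. The largest decreases lay in a cluster of neighbouring genes on chromosome 2, where shared reads are possible. *Solyc02g070990* had 6.70, 15.7 and 22.3 CPM against 226, 116 and 383 CPM (log2FC -4.02, SE 0.57, edgeR adjusted p = 0.0170). *Solyc02g070980* had 7.47, 19.3 and 30.3 CPM against 236, 153 and 380 CPM (log2FC -3.75, SE 0.55). *Solyc02g071000* had 11.4, 35 and 38.8 CPM against 364, 238 and 456 CPM (log2FC -3.63, SE 0.48, edgeR adjusted p = 0.0144). In these neighbours infested replicate 3 was the nearest to the controls and replicate 1 the farthest. *Solyc02g070970* had 14.7, 55.3 and 87.1 CPM against 522, 382 and 791 CPM (log2FC -3.43, SE 0.61). *Solyc02g070950* had 14.3, 40.1 and 49.6 CPM against 292, 238 and 490 CPM (log2FC -3.29, SE 0.49). Outside the cluster the decreases were smaller. The abundant *Solyc09g014520* had 1729, 1777 and 2407 CPM against 3867, 3174 and 4484 CPM (log2FC -0.96, SE 0.22, edgeR adjusted p = 0.0336). *Solyc04g082920*, the only member not called, had 42.7, 50.7 and 51.1 CPM against 60.8, 69.8 and 78.5 CPM (log2FC -0.53, SE 0.15, edgeR adjusted p = 0.0561). Without control replicates 1, 2 and 3, 0, 16 and 2 members were called, and without infested replicates 1, 2 and 3, 17, 14 and 24.

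**Figure D3:**
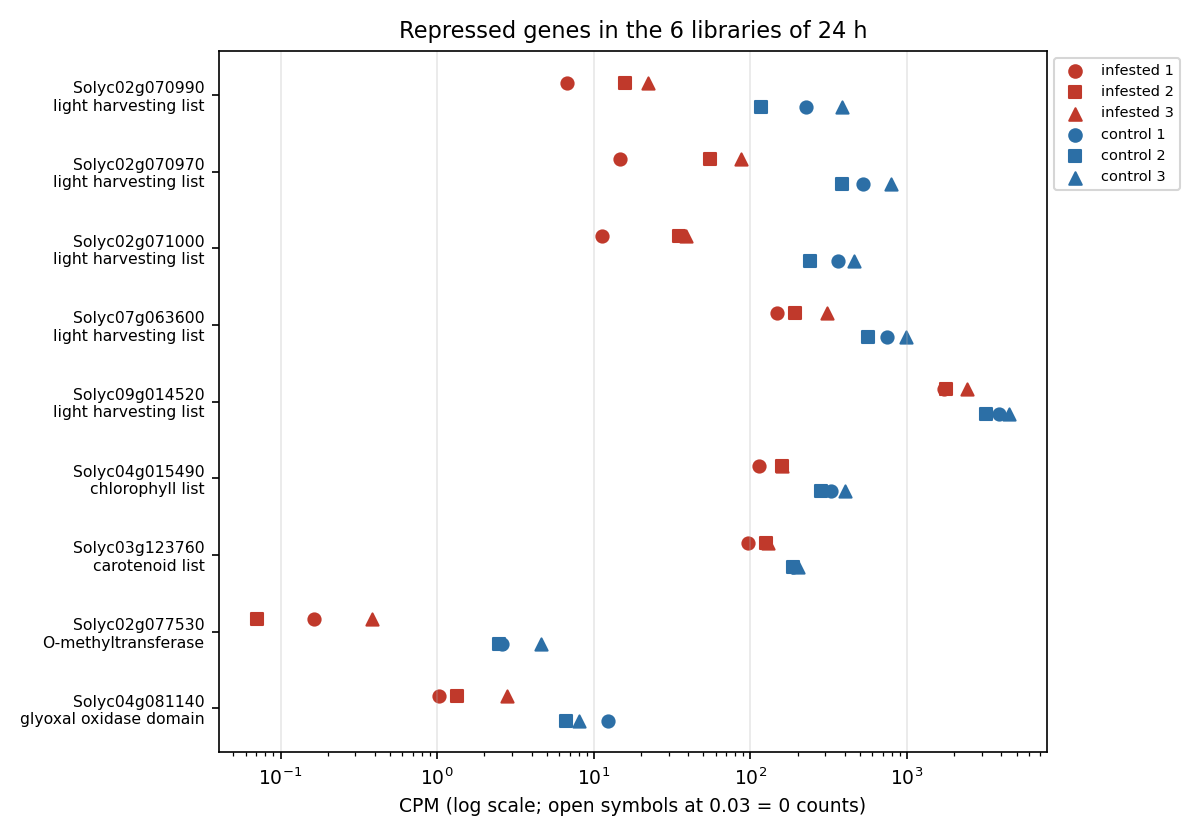
CPM on a log scale (horizontal axis) of genes that fell after 24 h, 1 row per gene, with 3 infested (red) and 3 control (blue) points and a marker shape for each replicate number. Infested points lie to the left of all controls in each row, with replicate 1 mostly the farthest left (6.70 CPM for *Solyc02g070990*, beside 15.7 and 22.3 CPM).

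Pigment synthesis fell with them. All 7 genes of chlorophyll biosynthesis had infested libraries below controls, as had 18.1% of all genes, and 5 fell (median log2FC -0.97). *Solyc04g015490* had 113, 159 and 158 CPM against 326, 282 and 400 CPM (log2FC -1.23, SE 0.20, edgeR adjusted p = 0.0177). *Solyc10g077040*, not called, had 1013, 1123 and 1691 CPM against 2405, 2029 and 2709 CPM (log2FC -0.90, SE 0.24, edgeR adjusted p = 0.0509). The tetrapyrrole list, which contains the chlorophyll genes and covers the ring from which chlorophyll and haem are built, had 13 of 19 members that fell (median log2FC -0.97). Of 5 genes of carotenoid biosynthesis, which makes the accessory pigments, all 5 fell, with log2FC between -0.72 and -0.55, and *Solyc03g123760* had 96.8, 125 and 130 CPM against 188, 187 and 200 CPM. With library totals 2 of these 5 were called, beside 719 of all 17511 genes tested that fell under that scaling. All these lists were chosen among the 24 h DEGs of these libraries, and none of their members was called without control replicate 1 or 3. Without control replicate 2 no carotenoid gene was called, and without infested replicates 1, 2 and 3, 1, 2 and 3 were.

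Decreases of similar size spread over other biosynthetic groups, also chosen by the study among these DEGs. Of 19 genes of tRNA aminoacylation, which charges tRNAs with amino acids, 16 fell (median log2FC -0.85). Of 18 genes of purine nucleotide biosynthesis 12 fell (median -0.81), of 11 genes of serine family amino acid metabolism 9 fell (median -0.74), and of 5 genes of photosystem I electron transport 3 fell (median -0.72). In these 4 lists every member had infested libraries below controls, as had 18.1% of all genes. Of 17 genes of fatty acid biosynthesis 5 fell (median -0.87), and of 6 genes of riboflavin biosynthesis 2 fell (median -0.62). None of these members was called without control replicate 1, and without control replicate 3 only 1 riboflavin gene was. Without control replicate 2 the calls came to 9 for tRNA aminoacylation, 5 for purine, 2 for serine family and 1 for photosystem I genes. The counts for purine and serine family genes were 7 and 5 without infested replicate 1, and the latter was 5 without infested replicate 2 too. Photosystem I genes had 0 and 1 calls without infested replicates 1 and 2, and fatty acid and riboflavin genes had 2 and 1 without infested replicate 1.

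**Figure D4:**
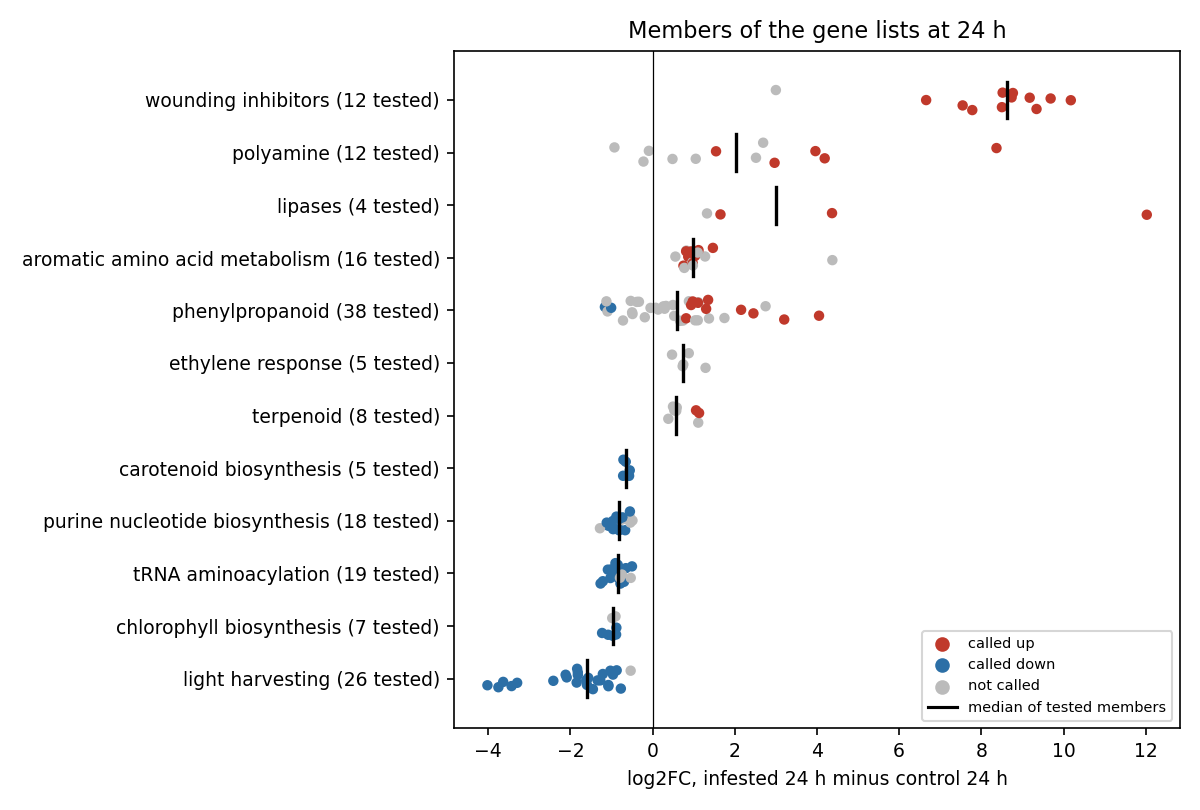
Log2FC, infested 24 h minus control 24 h (horizontal axis), of each tested member of the gene lists, 1 row per list, with called members marked by colour and a bar at each list's median. Wounding inhibitors (median 8.63) lie far to the right. Light harvesting (median -1.61), chlorophyll, tRNA aminoacylation, purine nucleotide and carotenoid genes lie to the left of 0. The medians of the polyamine (2.03), aromatic amino acid (0.97), phenylpropanoid (0.60) and terpenoid (0.58) lists lie to the right.

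With TMM-scaled levels, the infested library nearest to the controls was another one for genes that fell than for genes that rose. Among the 825 genes that rose, replicate 2 was the nearest for 552 (66.9%), replicate 3 for 166 and replicate 1 for 107. Among the 1127 genes that fell, replicate 3 was the nearest for 676 (60.0%), replicate 2 for 412 (36.6%) and replicate 1 for 39. The same appeared within lists. Replicate 2 was nearest for 11 of 12 wounding inhibitors, and replicate 3 for 25 of 26 light harvesting genes, 15 of 19 tetrapyrrole genes and all 5 carotenoid genes. The controls were also uneven. Control replicate 2 was the highest control for 11 of the 12 wounding inhibitors and control replicate 3 for 25 of the 26 light harvesting genes and all 19 tRNA aminoacylation genes. The 1127 genes that fell took 40.5, 38.4 and 43.1% of counts in control replicates 1, 2 and 3 and 19.3, 25.7 and 24.4% in infested replicates 1, 2 and 3, while the 825 that rose took 1.49 to 1.99% in the controls and 20.7, 10.2 and 19.1% in the infested libraries. These shares are of library totals, without TMM. By them replicate 2, not replicate 3, lay nearest to the controls for genes that fell. Which library was nearest for those genes thus depended on scaling. Since these genes were called on the same libraries, these values describe them and test nothing.

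Several of the largest decreases were of low or moderate genes outside photosynthesis, and the study lists those named here as down at 5 h too. The O-methyltransferase *Solyc02g077530* had 0.163, 0.0705 and 0.386 CPM against 2.58, 2.48 and 4.61 CPM (log2FC -3.94, SE 0.61, edgeR adjusted p = 0.0175). The phosphatase *Solyc06g062560* had 0.817, 1.62 and 0.926 CPM against 8.10, 4.80 and 8.94 CPM (log2FC -2.69, SE 0.39). *Solyc02g077530* lay below the filter in all infested libraries, where 3 counts corresponded to 0.106 to 0.122 CPM. It passed only through the controls, so the size of its decrease is uncertain. *Solyc06g062560* was near the filter in the infested leaves. The glyoxal oxidase *Solyc04g081140* had 1.02, 1.34 and 2.78 CPM against 12.3, 6.66 and 8.02 CPM (log2FC -2.39, SE 0.43). The transcription factor *Solyc10g084380* had 3.59, 8.46 and 9.45 CPM against 30.2, 23.2 and 55.7 CPM (log2FC -2.34, SE 0.44). The short-chain dehydrogenase *Solyc12g013710* had 3.02, 6.03 and 4.28 CPM against 28.2, 13.1 and 23.5 CPM (log2FC -2.28, SE 0.36). Groups did not overlap in these genes, and their calls were lost without control replicate 1 or 3.

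The genes that the study lists as down at 5 h gave a broader view, from other libraries. Of 1083 genes, 1055 were tested, and 244 fell and 4 rose at 24 h, beside 6.44% and 4.71% of all genes. The median log2FC was -0.53, beside 0.03. Of 69 protein kinases tested out of 71 in this list, 10 fell and 1 rose (median -0.52). Genes of cell wall xyloglucan metabolism had 3 of 7 that fell, auxin response 2 of 7, microtubule motors 1 of 6 and DNA replication 1 of 6. None of 10 UDP-glycosyltransferases tested of 11, of 5 fatty acid elongases or of 6 phosphatidic acid genes was called, with medians of -0.36, -0.87 and -0.06. Without control replicate 1 no member of the full list was called, without control replicate 3, 9 fell and 1 rose, without control replicate 2, 149 and 1, and without infested replicates 1 and 3, 120 and 1, and 150 and 2.

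Single infested libraries also decided calls in other genes. The calls gained without infested replicate 1 included the glycosyl transferase *Solyc07g007620*, with 17.6, 10.3 and 10.9 CPM against 24.0, 20.1 and 24.9 CPM, and the protein kinase *Solyc09g083090*, with 8.86, 23.3 and 23.7 CPM against 44.0, 48.4 and 37.9 CPM. In both, replicate 1 stood apart, on the control side for the first and away from it for the second. Calls gained without infested replicate 3 included *Solyc01g096620*, a nitrogen compound biosynthesis gene with 3.14, 5.22 and 24.5 CPM against 25.9, 22.9 and 33.3 CPM, and its neighbour *Solyc01g096630*, with 3.02, 6.10 and 17.8 CPM against 19.3, 23.2 and 31.5 CPM. The lipid biosynthesis gene *Solyc03g097170* likewise had 6.17, 13.3 and 24.3 CPM against 28.4, 50.8 and 78.5 CPM. In these 3 genes replicate 3 was the infested library nearest to the controls, and it reached their range in *Solyc01g096620*. With all libraries the log2FC of *Solyc01g096620* was -1.32 (SE 0.68, edgeR adjusted p = 0.230). In total 585 genes were called only without infested replicate 2, 550 were called only with it and 1402 in both fits.

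Scaling set the balance of directions. TMM factors were 1.08, 1.13 and 0.971 in infested replicates 1, 2 and 3 and 0.909 to 0.975 in the controls. With library totals alone, which shift the median log2FC of all genes from 0.03 to 0.21, 1339 genes rose and 719 fell, so that up-regulated genes went from 42.3% to 65.1% of the DEGs. The 825 genes that rose with TMM all rose with library totals, and 717 of the 1127 that fell still did. With upper quartile factors 719 rose and 1331 fell (35.1% up), and with DESeq2 size factors 765 and 1158 (39.8% up). Among the annotated genes that crossed the threshold, the 3 with the smallest adjusted p in each direction are given. *Solyc01g108390*, a serine-type endopeptidase inhibitor gene that went against the induced inhibitors, had 20.5, 34.2 and 21.2 CPM against 50, 53.5 and 60.3 CPM and fell with TMM (log2FC -1.11, SE 0.22, edgeR adjusted p = 0.0243) but missed the threshold with library totals (log2FC -0.92, adjusted p = 0.0501). The metalloendopeptidase *Solyc07g052290*, with 59.2, 74.9 and 69.5 CPM against 129, 108 and 108 CPM, and the amino acid biosynthesis gene *Solyc10g006040*, with 24.1, 33.2 and 28.5 CPM against 57.1, 48.4 and 46.6 CPM, did the same. SlMYB12 also lost its call with library totals. In the other direction, *Solyc01g111880*, of protein modification, had 26.1, 15.8 and 23.4 CPM against 10.9, 12.1 and 13.7 CPM and passed only with library totals (edgeR adjusted p = 0.0282, beside 0.0502 with TMM). *Solyc06g051930*, of carboxylic acid metabolism, and *Solyc01g108660*, of amino acid biosynthesis, passed only with library totals too, at log2FC of 0.79 and 0.39 with TMM. The other 47 of the 51 named DEGs were called under both scalings. Light harvesting kept 24 calls with library totals and wounding inhibitors kept 11, and the sign of both medians stayed.

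**Figure D5:**
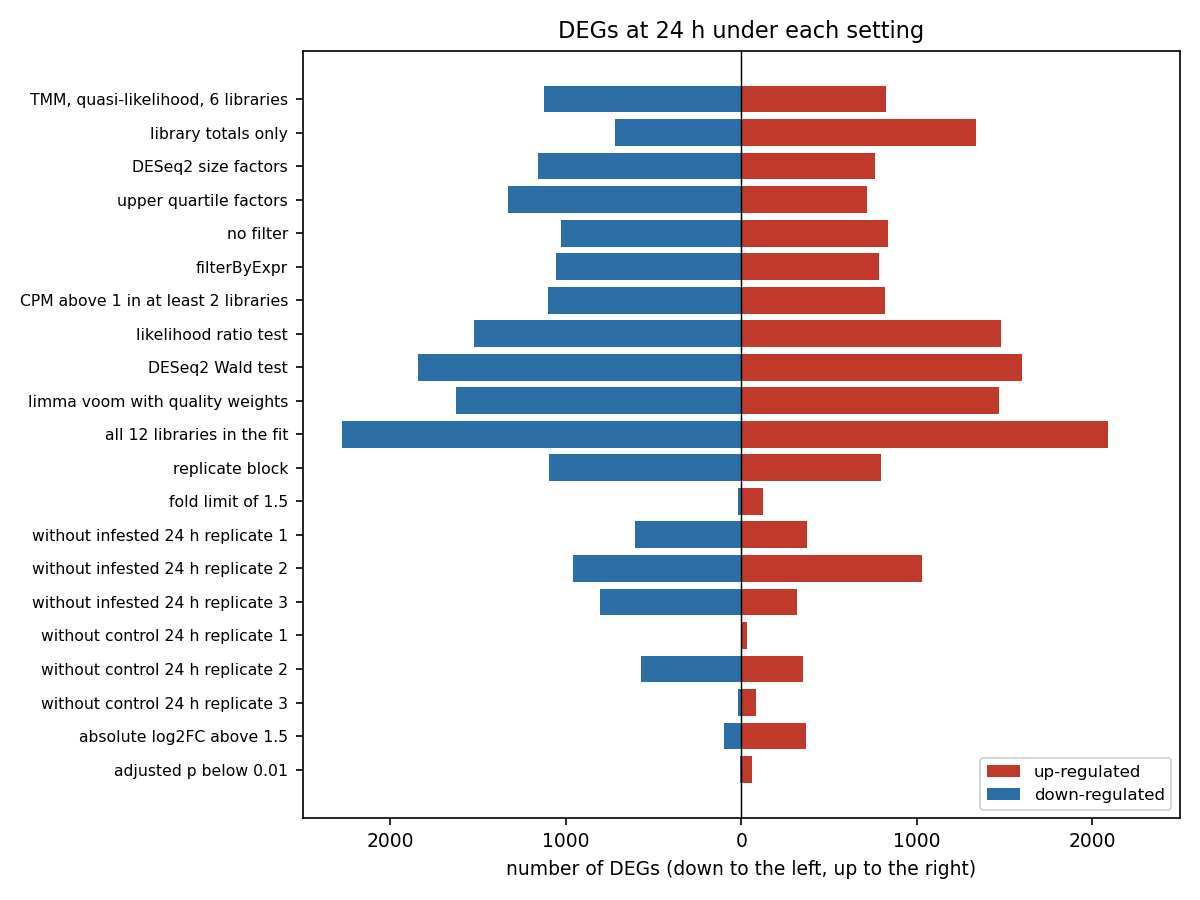
Number of DEGs that fell (bars to the left) and rose (bars to the right) at 24 h under each scaling, filter, test and left-out library, 1 row per setting. The bars are shortest without control replicate 1 (1 fell and 30 rose), and library totals is the scaling under which more genes rose (1339) than fell (719).

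The response at 24 h was set beside that at 5 h in a fit of all 12 libraries. Among 142 annotated genes chosen by the naming rule that could be tested, 13 had a lower and 1 a higher log2FC at 24 h than at 5 h, beside 1.47% and 0.687% (2.16% together) of the 18200 genes tested for this difference. Many of the 142 were named for a large decrease at 24 h or because the study picked them at 5 h, so a surplus of lower responses follows from the choice and supports nothing. The 5 chromosome 2 light harvesting neighbours named above were among the lower, as were *Solyc10g086180*, C3'H and *Solyc04g063210* of the phenylpropanoid list, and *Solyc08g080170*, *Solyc06g074090*, *Solyc09g009040* and *Solyc12g015860* of the terpenoid list. At 24 h the sterol reductase *Solyc06g074090* had 12.9, 26.3 and 27.9 CPM against 10.1, 16.6 and 18.4 CPM, with overlapping groups. Farnesyl pyrophosphate synthase (*Solyc12g015860*), which makes the precursor of sterols and sesquiterpenes, had 85.9, 51.4 and 77.7 CPM against 49.5, 48.4 and 51.2 CPM and was not called at 24 h either (edgeR adjusted p = 0.113). The count was 1 without infested replicate 2 or 3 or control replicate 2 or 3 of 5 h, and 2 without control replicate 1 or 3 of 24 h.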

How the data were processed

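RNA from infested and control leaflets was sequenced by the authors, who used Trimmomatic for trimming, BWA-MEM for mapping and featureCounts for counting per gene. Deposited values are raw counts in whole numbers, although the paper speaks of FPKM. The paper names the annotation ITAG2.4, whereas the sources used here give no strand setting or rule for reads that fit several genes. The file headers give 1 shared mapping input for all libraries of 24 h. Gene names came from the paper and its supplements, since the reference tables matched 0 identifiers, and no sequence is shown.

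The tools were DESeq2 1.42.0, edgeR 4.0.16 and limma 3.58.1 under R 4.3.3. The filter kept each gene above 1 CPM of the library total in 3 or more of the 6 libraries of 24 h. Libraries were then scaled by TMM, as are the CPM printed, and 1 mean per group was fitted. DEGs have an adjusted p below 0.05 (Benjamini-Hochberg over all genes tested) in the quasi-likelihood test. The SE is the absolute log2FC divided by the square root of F, and log2FC used a prior count of 0.125. Floors (3 counts) cover counting error only. The 5 h libraries were fitted alone for gene sets, and all 12 libraries for the difference between times.

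Alternatives covered scaling, filter, test, libraries fitted, threshold, prior count, replicate block and each library left out. Members and lists were chosen with earlier results of these data known. Genes were named if the paper names them or they fall at the extremes of a list, if they were among the 15 largest annotated changes without overlap in either direction (2 of any annotation), or among the 3 largest annotated calls that depend on an infested library or on scaling. Not all genes so chosen are printed. The fit was tested on simulated data with 200 changed genes.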

Additional observations from a re-analysis of the deposited data

Results flagged for a closer look

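Among 142 annotated genes chosen by the naming rule, 14 had a response to feeding at 24 h that differed from that at 5 h in edgeR's quasi-likelihood test of the interaction, with p adjusted over 18200 genes. Many were named for their decrease at 24 h or for their response at 5 h, so the direction of these differences is partly set by the choice of genes. Values are the log2FC at 24 h minus that at 5 h. The largest negative differences were those of 5 neighbouring light harvesting genes, *Solyc02g070980* at -3.52 (SE 0.60, adjusted p = 0.0240), *Solyc02g070990* at -3.47 (SE 0.63, adjusted p = 0.0287), *Solyc02g071000* at -3.40 (SE 0.53, adjusted p = 0.0188), *Solyc02g070970* at -3.30 (SE 0.66, adjusted p = 0.0343) and *Solyc02g070950* at -3.16 (SE 0.53, adjusted p = 0.0240), which may share reads. The chlorophyll biosynthesis gene *Solyc04g015490* differed by less, at -1.10 (adjusted p = 0.0343).

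Terpenoid genes with a lower response at 24 h were the sterol reductases *Solyc06g074090* at -2.73 (SE 0.48, adjusted p = 0.0251) and *Solyc09g009040* at -1.46 (SE 0.29, adjusted p = 0.0343), hydroxymethylglutaryl-CoA synthase (*Solyc08g080170*) at -2.03 (SE 0.24, adjusted p = 0.00803) and farnesyl pyrophosphate synthase (*Solyc12g015860*) at -1.22 (SE 0.24, adjusted p = 0.0343). In the phenylpropanoid pathway the phenylalanine ammonia lyase *Solyc10g086180* came to -2.72 (SE 0.47, adjusted p = 0.0240), C3'H (*Solyc01g096670*) to -2.55 (SE 0.56, adjusted p = 0.0403) and caffeoyl-CoA O-methyltransferase (*Solyc04g063210*) to -1.48 (SE 0.30, adjusted p = 0.0343). The tyramine transferase *Solyc08g068700* was the only one with a higher response at 24 h, at 2.15 (SE 0.45, adjusted p = 0.0364). At 24 h alone this gene was not called and its groups overlapped. The difference thus rests on the 5 h libraries as well and is not by itself an induction at 24 h.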

How the results depend on the processing

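The counts of 825 genes up and 1127 down came to 1339 and 719 with library totals (65.1% up). The likelihood ratio test gave 1483 up and 1521 down, and DESeq2's Wald test 1603 and 1845. Limma voom with quality weights gave 1468 and 1627, and all 12 libraries in the fit gave 2091 and 2278. Stricter limits gave 122 and 20 against a fold of 1.5 (85.9% up), 367 and 96 with an absolute log2FC above 1.5 (79.3%), and 61 and 6 with an adjusted p below 0.01 (91.0%). Leaving out 1 library in turn gave 30 to 1030 up, 1 to 957 down and 28.3 to 96.8% up. Fewer samples were fitted there, and why controls 1 and 3 weigh most was not tested. The wider filter chosen after seeing the data gave 818 and 1104. Replicate numbers do not pair the libraries by any label. Deviations of same-numbered libraries correlated at 0.06, 0.04 and 0.27 for replicates 1, 2 and 3. Libraries of other numbers gave -0.10 to 0.08, -0.10 to 0.11 and -0.23 to -0.16, so replicate 3 lay above its range. A replicate block gave 794 and 1094, of which 628 and 957 were shared with the fit without it. The 14 genes whose response differed between times became 25 with the likelihood ratio test and 12 with the replicate block, and 1 to 22 without 1 library. The median difference over genes up at 5 h was 1.40, 0.76 and 1.26 in infested replicates 1, 2 and 3 as a mean and 6.17, 2.24 and 5.68 over the study's 50 genes, so replicate 2 stayed the lowest. No DEG named above reversed its direction under any alternative run. Values near 0 could change sign, as did the median of the phosphatidic acid genes, from -0.06 to 0.10 with library totals.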
